A study of Equus caballus with 68 samples.

Results

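The proteasome genes described here were the rows of the deposited expression table whose symbol begins with PSM, a subunit letter from A to G and a number. Of 30371 rows in the table, 45 matched. PSMA8, an alpha subunit best known from testis, reached at most 0.324 GeTMM in any library and was above 0 in 10 libraries, and PSMB11, the catalytic subunit of the thymus, reached 0.0815 in 1 library, so both fell under the filter of 0.5 GeTMM in at least 7 libraries. PSMC3IP and PSME3IP1 matched by name and passed the filter, but they encode proteins that bind a subunit rather than subunits or assembly factors, and they were set aside. The remaining 41 genes, of 14570 tested in all, comprised 7 alpha ring genes, 3 non-catalytic beta genes, 3 constitutive catalytic genes, 5 immunoproteasome genes, 6 ATPases and 9 non-ATPases of the 19S regulatory particle, 3 chaperones that assist assembly of its base, 3 further regulators and 2 chaperones of 20S assembly. PSMB3, PSMD8, PSMD14, PSMG1 and PSMG2 were not analysed here.

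Bone marrow mononuclear cells (BMNC) of 8 Thoroughbred horses, 6 geldings and 2 mares aged 3 to 9 years, were sequenced uncultured (0 h, 8 libraries) or after culture in the same horse's normal synovial fluid (SF) or inflamed synovial fluid (ISF). ISF came from radiocarpal joints in which lipopolysaccharide had been injected to induce synovitis, and SF from healthy middle carpal joints. Both fluids were cleared of cells, so the cultured cells were the marrow cells alone. Each fluid had 7 libraries at 48 h, 8 at 96 h, 8 at 6 d and 7 at 10 d, 68 libraries in all, each cultured one from 1 of 2 duplicate wells, and the labels name no other agent and no genotype. The horse was the replicate, and every horse supplied libraries to both fluids. Flash had no library at 10 d and Moon none at 48 h, in either fluid.

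The proteasome is the cell's main machine for breaking down proteins tagged with ubiquitin. Its 20S core is a barrel of alpha and beta rings in which 3 kinds of beta subunit cut peptide bonds, and the 19S particle that caps it recognises the tag, unfolds the substrate with its ATPases and feeds it into the barrel. In leukocytes and in cells exposed to interferon gamma, PSMB8, PSMB9 and PSMB10 are built into new cores in place of PSMB5, PSMB6 and PSMB7, giving the immunoproteasome, whose peptides are well suited to display on MHC class I. The PA28 cap made of PSME1 and PSME2 is induced alongside it. Marrow holds many immune cells that carry immunoproteasomes, and macrophages carry both forms.

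Levels are given in GeTMM, the authors' read counts corrected for gene length and scaled between libraries, so that levels of different genes can be compared. Differences are on the log2(GeTMM + 1) scale with their standard error (SE), and a gene was called where limma's false discovery rate (FDR) over all 14570 genes was under 0.05. Depth, recovered from the steps of the values, was 15.7 to 36 M reads on genes per library, and the member with the fewest reads in any library still had 102. The SF library of the horse Moon at 6 d stood apart: its GeTMM values summed to 2321940 against 817795 to 1458342 in the others, it was the highest of the 8 for 35 of the 41 members, and its level was 0.333 to 6.09 times the median of the other 7 (median 3.14 times). By a profile of 200 genes, 66 of 68 libraries were closest to other libraries of their own horse. The ISF libraries labelled Dealings and Dreamer at 96 h were each closest to the other horse of this pair. Where leaving these libraries out changed a count of calls or a call discussed here, the value without them is given. Because these are bulk libraries, fewer cells of a type and less RNA per cell cannot be told apart.

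Cultured and uncultured cells differed in their markers. The summed level of 7 macrophage markers (CD68, CD163, MRC1, GPNMB, SPP1, TREM2 and MSR1) was 184 to 307 GeTMM at 0 h, 14796 to 27364 in ISF at 48 h and 7548 to 13818 in SF at 48 h, and all 7 rose in both fluids. Over the same interval 4 of 5 T cell markers fell in each fluid, 5 of 5 B and plasma cell markers fell in ISF and 3 of 5 in SF, and 4 of 4 erythroid markers fell in both. Of 6 neutrophil precursor markers, 2 fell in ISF and 3 in SF, with a summed median of 14556 GeTMM at 0 h, 3222 in ISF and 2904 in SF. The part of these shifts in the results that follow was not tested.

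The subunits of the constitutive 26S particle rose between 0 h and 48 h in both fluids. Of the 28 core genes (alpha ring, beta ring with the constitutive catalytic subunits, ATPases and non-ATPases), 25 rose and none fell in ISF, with a median difference of 0.67, and 19 rose and none fell in SF, with a median of 0.47. Over all 41 members 29 rose and 1 fell in ISF (70.7% and 2.44%), against 25.3% and 27.4% of all genes tested. In SF 21 rose and 2 fell (51.2% and 4.88%), against 22.3% and 23.1% of all genes. The median of all genes was -0.03 in ISF and -0.01 in SF. Both comparisons used the same 0 h libraries. The mean level of the core genes had a median of 70.9 GeTMM at 0 h, 125 in ISF at 48 h and 100 in SF at 48 h. Without the Moon SF library at 6 d, whose spread enters the shared fit, 33 members rose and 1 fell in ISF (82.9% of members called, against 59% of all genes), and 27 rose and 3 fell in SF (73.2%, against 52.5%). Levels of 17 members in ISF and 8 in SF were higher in every 48 h library than in any 0 h library, as were 14.7% and 12.2% of all genes tested. Those of 1 member in each fluid, PSMB10, were lower in every library, as were 12.6% and 9.3% of all genes.

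**Figure D1:**
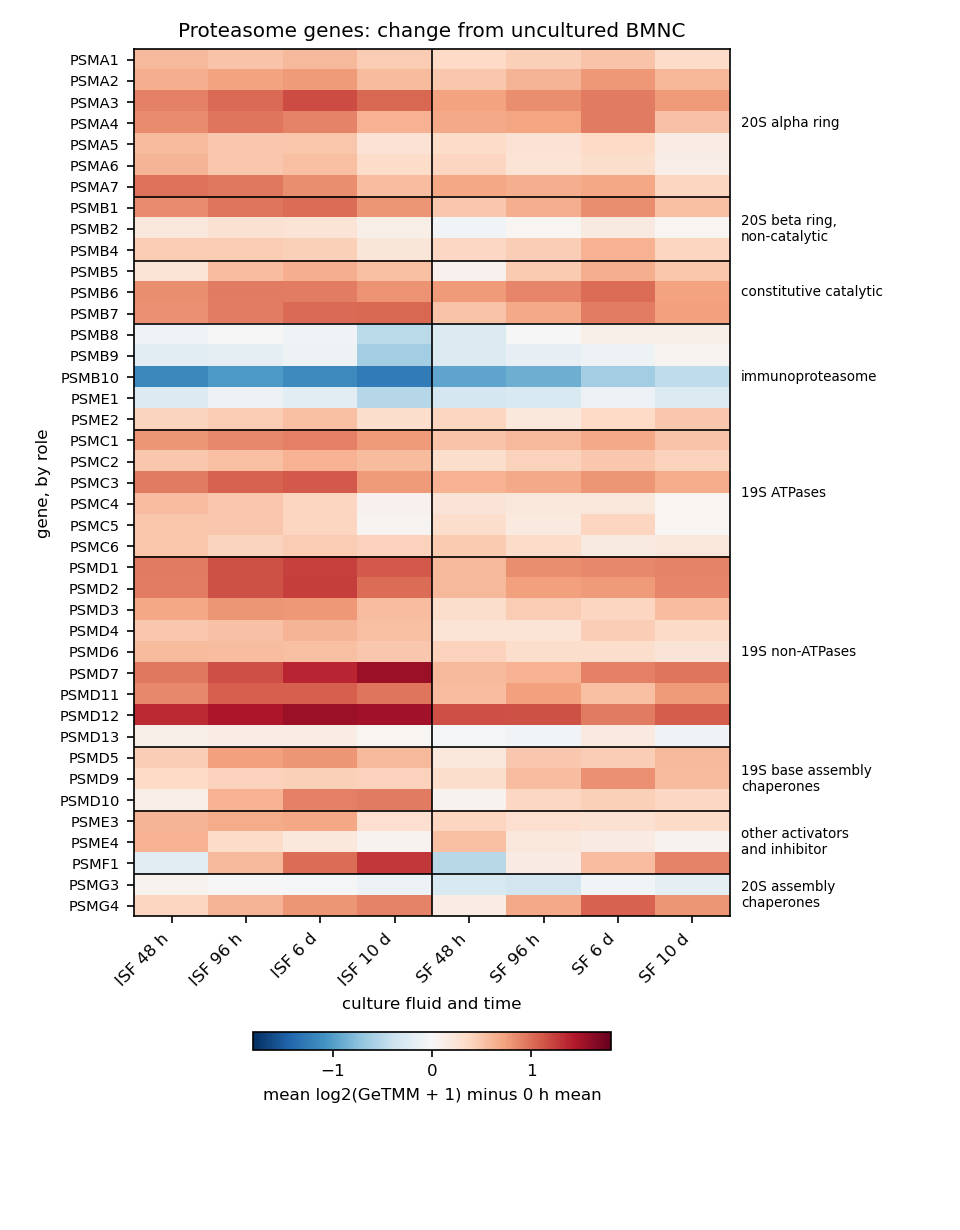
Mean log2(GeTMM + 1) of 41 proteasome genes in each cultured condition minus the mean of the 0 h libraries, as a heat map with genes in rows by role and fluid and time in columns. At 48 h PSMD12 stood highest (1.34 in ISF and 1.16 in SF) and PSMB10 was below 0 h in both fluids. The highest value of the map is PSMD7 in ISF at 10 d (1.55). The SF column at 6 d includes the Moon library that stood apart.

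All 7 alpha ring genes, which form the outer rings and the gate of the barrel, rose in ISF (0.57 to 0.98). PSMA7 was at 109, 132 and 174 GeTMM (lowest, median and highest) at 0 h, 222, 254 and 361 in ISF at 48 h, and 171, 209 and 273 in SF at 48 h. Its ranges did not overlap between 0 h and ISF and overlapped narrowly between 0 h and SF. It rose by 0.98 (SE 0.16, FDR 3.17e-07) in ISF and 0.69 (SE 0.16, FDR 0.000194) in SF. PSMA3 rose by 0.91 in ISF and 0.73 in SF. In SF 5 of 7 alpha genes rose. PSMA6 was the most abundant alpha gene over all libraries (mean 233 GeTMM) and PSMA4 the least (78).

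Among the non-catalytic beta genes, PSMB1 rose by 0.85 (SE 0.18, FDR 7e-05) in ISF and 0.48 (SE 0.18, FDR 0.0257) in SF, from 66.8, 72.4 and 84.7 GeTMM at 0 h to 120, 133 and 158 in ISF and 91.6, 102 and 121 in SF. No cultured library at 48 h was as low as the highest 0 h library. The SF call was lost without Catnip, Dealings, Lurie or RimRun. PSMB4 was the most abundant core gene in every group. It rose in ISF by 0.46 (FDR 0.0112, not called without RimRun) and differed by 0.37 in SF without passing the test, and PSMB2 passed in neither fluid. With the horse as a block or without the Moon SF library at 6 d PSMB4 also passed in SF, and PSMB2 passed in ISF without that library.

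All 6 ATPases, the ring that unfolds substrates, rose in ISF (0.49 to 0.94) and 4 of 6 in SF. PSMC3 was at 62.7, 69.9 and 84.2 GeTMM at 0 h, 123, 135 and 166 in ISF and 95.1, 101 and 130 in SF, so neither fluid overlapped with 0 h. Its rise was 0.94 (SE 0.17, FDR 5.35e-06) in ISF and 0.62 (SE 0.17, FDR 0.00231) in SF. PSMC2 had the smallest called rise among core genes in SF (0.31, FDR 0.0359, lost without Catnip, Dealings, Lurie or RimRun). PSMC5 was the most abundant ATPase (mean 135 GeTMM over all libraries) and PSMC6 the least (45.5).

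The non-ATPases held the largest rises. PSMD12, a subunit of the lid that removes ubiquitin chains, was at 15.3, 21.9 and 30.8 GeTMM at 0 h, where it was the lowest core gene. It was at 46.5, 55.8 and 69 in ISF at 48 h and 46.2, 49.1 and 55.6 in SF at 48 h. Every cultured library exceeded every 0 h library, and the rise was 1.34 (SE 0.12, FDR 3.43e-15) in ISF and 1.16 (SE 0.12, FDR 9.28e-13) in SF. The lid subunit PSMD7 rose by 0.95 in ISF and 0.59 in SF. PSMD1 and PSMD2, the large scaffold subunits of the base, rose by 0.94 and 0.92 in ISF and by 0.59 and 0.58 in SF. In all, 8 of 9 non-ATPases rose in ISF and 7 of 9 in SF. From 48 h on PSMC6 was the lowest core gene in every group. The standard deviation of log2 levels among the 28 core genes was 0.73 at 0 h, 0.68 in ISF at 48 h and 0.68 in SF at 48 h.

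The catalytic genes, identified in the files as ENSECAG00000017123 (PSMB5), ENSECAG00000016254 (PSMB6), ENSECAG00000023415 (PSMB7), ENSECAG00000018887 (PSMB8), ENSECAG00000016898 (PSMB9) and ENSECAG00000012022 (PSMB10), did not move as one. PSMB6, the constitutive subunit with caspase-like activity, was at 79.9, 99.5 and 161 GeTMM at 0 h, 158, 177 and 240 in ISF at 48 h and 136, 171 and 243 in SF at 48 h. All but the highest 0 h library (Ollie, 161) were below every cultured library. It rose by 0.83 (SE 0.18, FDR 9.56e-05) in ISF and 0.76 (SE 0.18, FDR 0.000421) in SF. PSMB7, with trypsin-like activity, rose by 0.82 (SE 0.2, FDR 0.00052) in ISF and 0.52 (SE 0.2, FDR 0.0331) in SF, from 75.9, 79.7 and 113 GeTMM to 132, 144 and 204 in ISF and 100, 118 and 150 in SF. The ISF range lay wholly above that of 0 h and the SF range overlapped with it. The SF call was lost when any of Catnip, Dealings, Dreamer, Flash, Lurie or RimRun was left out. PSMB5, with chymotrypsin-like activity, was at 118, 133 and 154 GeTMM at 0 h, 149, 157 and 165 in ISF and 117, 143 and 180 in SF, ranges that overlapped, and it was called in neither fluid (0.24, FDR 0.0854, and 0.08, FDR 0.632). In ISF it passed with the horse as a block (FDR 0.0368) or without the Moon SF library at 6 d (FDR 0.0095).

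PSMB10 moved the other way. It was at 100, 122 and 188 GeTMM at 0 h, 43.2, 61.5 and 71.5 in ISF at 48 h and 58.1, 70 and 78.6 in SF at 48 h. No cultured library reached the lowest 0 h library, and it was lower in 7 of 7 horses in each fluid. PSMB10 fell by 1.16 (SE 0.2, FDR 1.25e-06) in ISF and by 0.95 (SE 0.2, FDR 5.97e-05) in SF. The counterparts of PSMB5 and PSMB6 did not pass the test. PSMB8 was at 113, 195 and 241 GeTMM at 0 h, 106, 181 and 195 in ISF and 121, 148 and 187 in SF (-0.07, FDR 0.803, and -0.25, FDR 0.356). PSMB9, the least abundant of the immunoproteasome genes at the mean, was at 28, 51.7 and 75.2 at 0 h, 28.2, 45.2 and 52.2 in ISF and 35.2, 41.4 and 49.6 in SF (-0.20, FDR 0.526, and -0.25, FDR 0.426). All of these ranges overlapped.

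**Figure D2:**
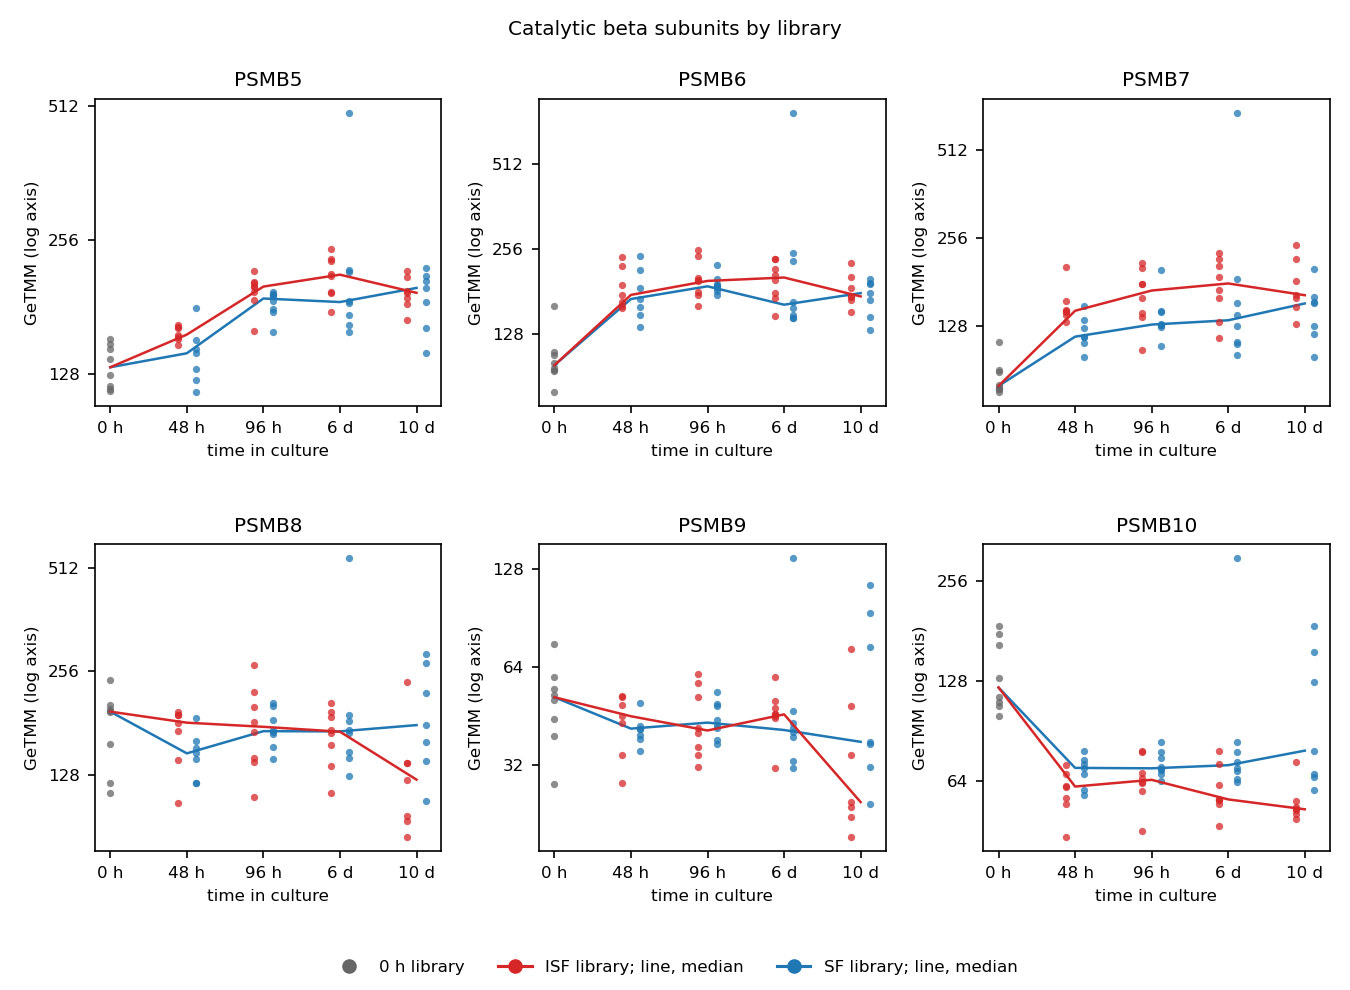
Level in GeTMM (log axis) of the 3 constitutive and the 3 immunoproteasome catalytic genes by time, with 1 point per library, SF and ISF in separate colours and a line through the medians of each fluid. PSMB10 stands at 100 to 188 at 0 h and at 43.2 to 78.6 in both fluids at 48 h, and the single highest SF point at 6 d is Moon in each panel.

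The PA28 genes passed in neither direction over the 68 libraries without a block. PSME1 was at 126, 161 and 215 GeTMM at 0 h, 113, 139 and 152 in ISF and 111, 128 and 148 in SF (-0.25, FDR 0.243, and -0.31, FDR 0.156). PSME2 was at 25.6, 37.6 and 50.1 at 0 h, 37.3, 46.8 and 56.1 in ISF and 39, 45.4 and 59.4 in SF, a difference of 0.40 in ISF (FDR 0.0983) and 0.38 in SF (FDR 0.129), above 0 in 7 of 7 horses in each fluid. These ranges overlapped. In ISF PSME2 passed with the horse as a block (FDR 0.0436) or without the Moon SF library at 6 d (FDR 0.0356), and PSME1 passed as lower in SF without that library (FDR 0.0347).

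Each immunoproteasome gene was also divided by the constitutive gene whose place its product takes, within a library, which removes the scaling of that library. The ratio of PSMB10 to PSMB7 was 0.953, 1.44 and 2.34 at 0 h, 0.297, 0.392 and 0.541 in ISF at 48 h and 0.466, 0.587 and 0.615 in SF at 48 h, with no overlap. The mean log2 difference was -2.02 in ISF (SD 0.41, n = 7) and -1.50 in SF (SD 0.46, n = 7), negative in 7 of 7 horses in each (two-sided exact sign-flip permutation test, p = 0.0156, adjusted p = 0.0703). PSMB9 to PSMB6 had medians of 0.484 at 0 h, 0.217 in ISF and 0.221 in SF, again lower in 7 of 7 horses in each. PSMB8 to PSMB5 had medians of 1.33, 1.17 and 1.03, lower in 7 of 7 horses in ISF and 6 of 7 in SF. The 3 immunoproteasome catalytic genes made up 42.8 to 63.1% (median 51.2%) of the summed catalytic GeTMM at 0 h, a median of 33.2% in ISF at 48 h and 36.2% in SF at 48 h.

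For most of the ratio tests from 0 h to 48 h the design could not reach a lower p. The smallest p that 7 horses allow is 0.0156 and that 8 allow is 0.00781. Of 36 ratio tests, 11 had an unadjusted exact permutation p under 0.05 and 0 had an adjusted p under 0.05, the smallest being 0.0703.

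**Figure D3:**
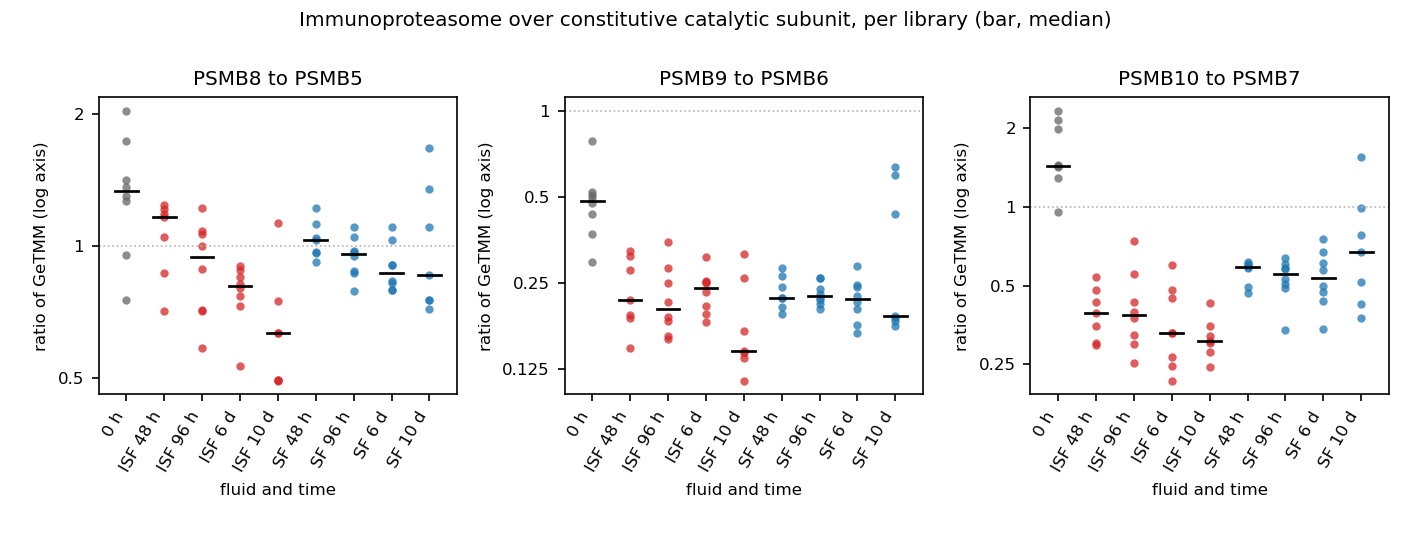
Ratio of each immunoproteasome catalytic gene to its constitutive counterpart in every library (points), by group. The PSMB10 to PSMB7 ratio is 0.953 to 2.34 at 0 h and at most 0.615 in either fluid at 48 h, and at 10 d it ranges over 0.244 to 0.428 in ISF and 0.374 to 1.55 in SF.

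The further regulators differed among themselves. PSME3, which forms the nuclear PA28 gamma cap, was at 57.6, 67.3 and 77.8 GeTMM at 0 h, 74.2, 107 and 120 in ISF at 48 h and 76.1, 88.9 and 101 in SF, ranges that overlapped narrowly, and rose by 0.61 and 0.38. PSME4, the PA200 activator, was at 16.5, 19.7 and 23.4 at 0 h, 26.5, 29.1 and 38.2 in ISF and 25.8, 30.4 and 32.1 in SF. It rose by 0.62 (SE 0.1, FDR 2.25e-07) and 0.54 (SE 0.1, FDR 5.23e-06), with no overlap. PSMF1, which encodes the 20S-binding protein PI31, was at 45.8, 51.7 and 72.7 at 0 h, 39.8, 44.4 and 60.2 in ISF and 32.2, 38.5 and 46.9 in SF. The highest SF library lay just above the lowest 0 h library. PSMF1 fell by 0.50 in SF (SE 0.18, FDR 0.0173), a call that was lost without Catnip, and was not called in ISF (-0.19). Of the assembly chaperones only those of the 19S base were called, PSMD5 (0.44, FDR 0.00669) and PSMD9 (0.36, FDR 0.0265), and only in ISF. PSMD9 was no longer called when any of Catnip, Dealings, Flash, Ollie or RimRun was left out. PSMG3 and PSMG4 of 20S assembly passed in neither fluid, but PSMG4 passed in ISF, and PSMD9 in SF, with the horse as a block or without the Moon SF library at 6 d.

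After 48 h few members changed from one time to the next. In ISF 2 rose and 1 fell from 48 h to 96 h (7.32% of members against 19% of all genes tested), and 1 fell from 6 d to 10 d (2.44% against 10.5%). In SF 3 rose and 1 fell from 48 h to 96 h (9.76% against 27.3%). No member was called by limma in ISF from 96 h to 6 d (6.38% of all genes), in SF from 96 h to 6 d (2.05%) or in SF from 6 d to 10 d (4.78%), with 2 members at an unadjusted p under 0.05 in each. With the horse as a block, 1 member, PSMF1, was called in ISF from 96 h to 6 d, against 10.7% of all genes. Without the Moon SF library at 6 d the calls were 6 in ISF from 48 h to 96 h, 3 in ISF from 6 d to 10 d and 7 in SF from 48 h to 96 h, against 26.8%, 15.6% and 35.5% of all genes. Without the horse Moon they were 5 in ISF from 48 h to 96 h and 5 in ISF from 6 d to 10 d, and without Ollie 0 in ISF from 6 d to 10 d and 2 in SF from 48 h to 96 h.

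PSMF1 had the largest later rise. It reached 43.1, 84.7 and 129 GeTMM in ISF at 96 h and 50.5, 58.6 and 82.7 in SF at 96 h, by 0.78 (SE 0.18, FDR 0.000775) and 0.65 (SE 0.18, FDR 0.00355) over 48 h, and its SF ranges at 48 h and 96 h did not overlap. At 10 d it was at 93.2, 136 and 163 in ISF and 75.6, 106 and 144 in SF, above every 0 h library in both fluids. PSMD10 (gankyrin, a chaperone of the 19S base) was at 12.3, 14.4 and 16.5 in ISF at 48 h and 16.8, 20.3 and 30.9 at 96 h, with no overlap, and rose by 0.50 (SE 0.12, FDR 0.00145). PSME4 fell in both fluids, by 0.29 (FDR 0.0261) in ISF and by 0.33 (FDR 0.00742) in SF, and in ISF the call was lost without Dealings, Dreamer, Lurie or Ollie. In SF, PSMB5 rose by 0.39 (FDR 0.0121) and PSMG4 by 0.55 (FDR 0.0191). Without Ollie neither was called, and PSMG4 was also lost without Dealings, Dreamer or Lurie. PSME3 fell in ISF from 6 d to 10 d by 0.40 (SE 0.1, FDR 0.00569), from 104, 108 and 122 to 62.7, 79.2 and 108 GeTMM. These ranges overlapped, and without Ollie it was not called.

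**Figure D4:**
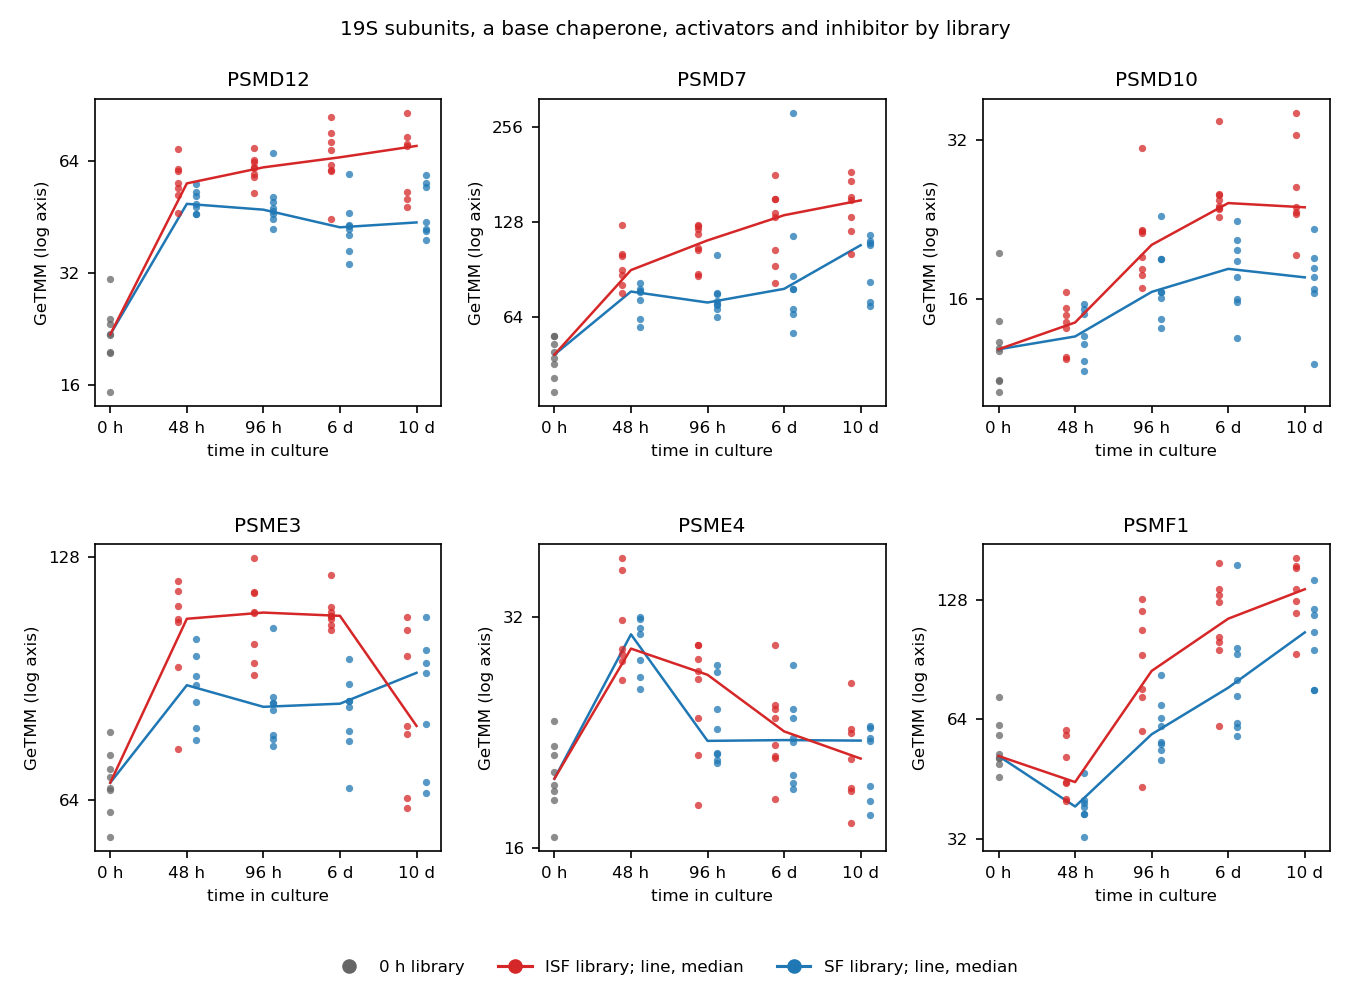
Level in GeTMM (log axis) of PSMD12, PSMD7, PSMD10, PSME3, PSME4 and PSMF1 by time, with 1 point per library, both fluids in separate colours and a line through the medians. PSMF1 climbs from a median of 44.4 in ISF and 38.5 in SF at 48 h to 136 and 106 at 10 d, and PSMD10 in ISF at 6 d (22.9 to 34.9) lies above SF (13.5 to 22.5).

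Between the fluids, 0, 4, 6 and 2 of the 28 core genes were called higher in ISF at 48 h, 96 h, 6 d and 10 d, and none was called lower. Among all genes tested 0.872%, 6.16%, 16.7% and 9.95% were called higher at these times and 0.81%, 4.3%, 13.6% and 10.8% lower. All of the core genes called were non-ATPases of the 19S particle. Without the Moon SF library at 6 d, genes of both rings and the ATPases were called as well, at 96 h and at 6 d. At 96 h these were PSMA7, PSMB1, PSMC1, PSMC3 and PSMC5. At 48 h the median member difference was 0.22 (all genes -0.02), with 40 of 41 members above 0, and limma called 0 of 41 (0.872% of all genes tested were higher and 0.81% lower), with 8 members at an unadjusted p under 0.05. PSMD3 was nearest to the threshold (0.37, SE 0.11, FDR 0.06). PSMD11, a lid subunit, was 47.9, 54.5 and 60.5 GeTMM in SF and 61.3, 65.9 and 82.4 in ISF, without overlap, at 0.31 (FDR 0.129). It was the only member without overlap at 48 h, where 0.789% of all genes were higher and 0.268% lower without overlap. It is named here after its values were seen. With the horse as a block PSMD1, PSMD2 and PSMD3 were called, against 4.53% of all genes, and without the Moon SF library at 6 d PSMB1, PSMD2 and PSMD3 were, against 5% of all genes. Leaving out the horse Moon gave the same 3 calls and leaving out Dealings gave 1, PSMD3. Moon had no library at 48 h, so without it only the shared fit changed.

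At 96 h 5 members were higher and none lower (12.2%, against 6.16% higher and 4.3% lower among all genes). They were the 19S non-ATPases PSMD7 (0.54, SE 0.17, FDR 0.0325), PSMD2 (0.40, FDR 0.00438), PSMD11 (0.33, FDR 0.0245) and PSMD3 (0.33, FDR 0.0229), and the activator gene PSME3 (0.36, FDR 0.0104). PSMD7 was at 63.8, 71.1 and 101 GeTMM in SF and 86.5, 112 and 125 in ISF, ranges that overlapped through the highest SF library, Moon. With the horse as a block 9 members were called, against 16.7% of all genes, and without the Moon SF library at 6 d 15 were higher (36.6%, against 16.8% of all genes). Without the Dealings and Dreamer ISF libraries at 96 h, 2 were called. Leaving out 1 horse gave 1 call without Dreamer, 2 without Dealings, Lurie or Ollie, and 17 without Moon. PSMD2 was called in each of these, while PSMD3 and PSMD11 were lost without Dealings, Dreamer, Lurie or Ollie, PSMD7 without any of these or RimRun, and PSME3 without Dreamer or Flash.

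At 6 d 10 members were higher in ISF and 2 lower (24.4% and 4.88%, against 16.7% and 13.6% of all genes). PSMD12 was at 33.8, 42.5 and 59 GeTMM in SF and 44.8, 65.6 and 84 in ISF, overlapping, and higher by 0.60 (SE 0.11, FDR 3.59e-05). PSMD11 (0.53), PSMD10 (0.48), PSMD2 (0.47), PSMD7 (0.46), PSMF1 (0.44), PSME3 (0.41), PSMD3 (0.39), PSMD1 (0.37) and PSMD5 (0.37) were also higher. PSMD10 at 13.5, 18.2 and 22.5 in SF and 22.9, 24.3 and 34.9 in ISF did not overlap, and neither did PSME3 at 66.3, 84.3 and 95.9 in SF and 104, 108 and 122 in ISF. Among all genes 2.1% were higher and 1.24% lower in ISF without overlap.

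The lower members at 6 d depended on the Moon SF library. PSMB10 was lower by 0.51 (FDR 0.035) with it and by 0.26 (FDR 0.193) without it, and PSMD9 by 0.39 (FDR 0.0194) with it and 0.20 (FDR 0.108) without it. PSMD5, the higher call that the same library decided, had FDR 0.195 without it. Without that library 24 members were higher in ISF and none lower (58.5%, against 36.2% of all genes), and the median member difference was 0.33 in place of 0.14. The added calls spread over the core, with PSMA3, PSMB1 and PSMC3 among them. Leaving out 1 horse gave 7 calls without Ollie and 23 without Moon. PSMD1, PSMD2, PSMD3, PSMD10, PSMD11, PSMD12 and PSME3 were called without each horse in turn. PSMD7 was lost without Catnip, Dealings, Dreamer, Lurie, Ollie or RimRun, PSMF1 without Catnip, Dreamer, Lurie or Ollie, PSMD5 without Catnip, Dealings, Dreamer, Flash, Moon or Ollie, PSMB10 without Dealings, Dreamer, Moon or Ollie, and PSMD9 without Lurie, Moon or Ollie.

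Markers also differed between the fluids. Cell cycle markers were higher in ISF at 6 d for 3 of 4 genes, and 5 of 5 T cell, 5 of 5 B and plasma cell and 5 of 6 neutrophil precursor markers were lower. Their part in these differences was not tested.

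**Figure D5:**
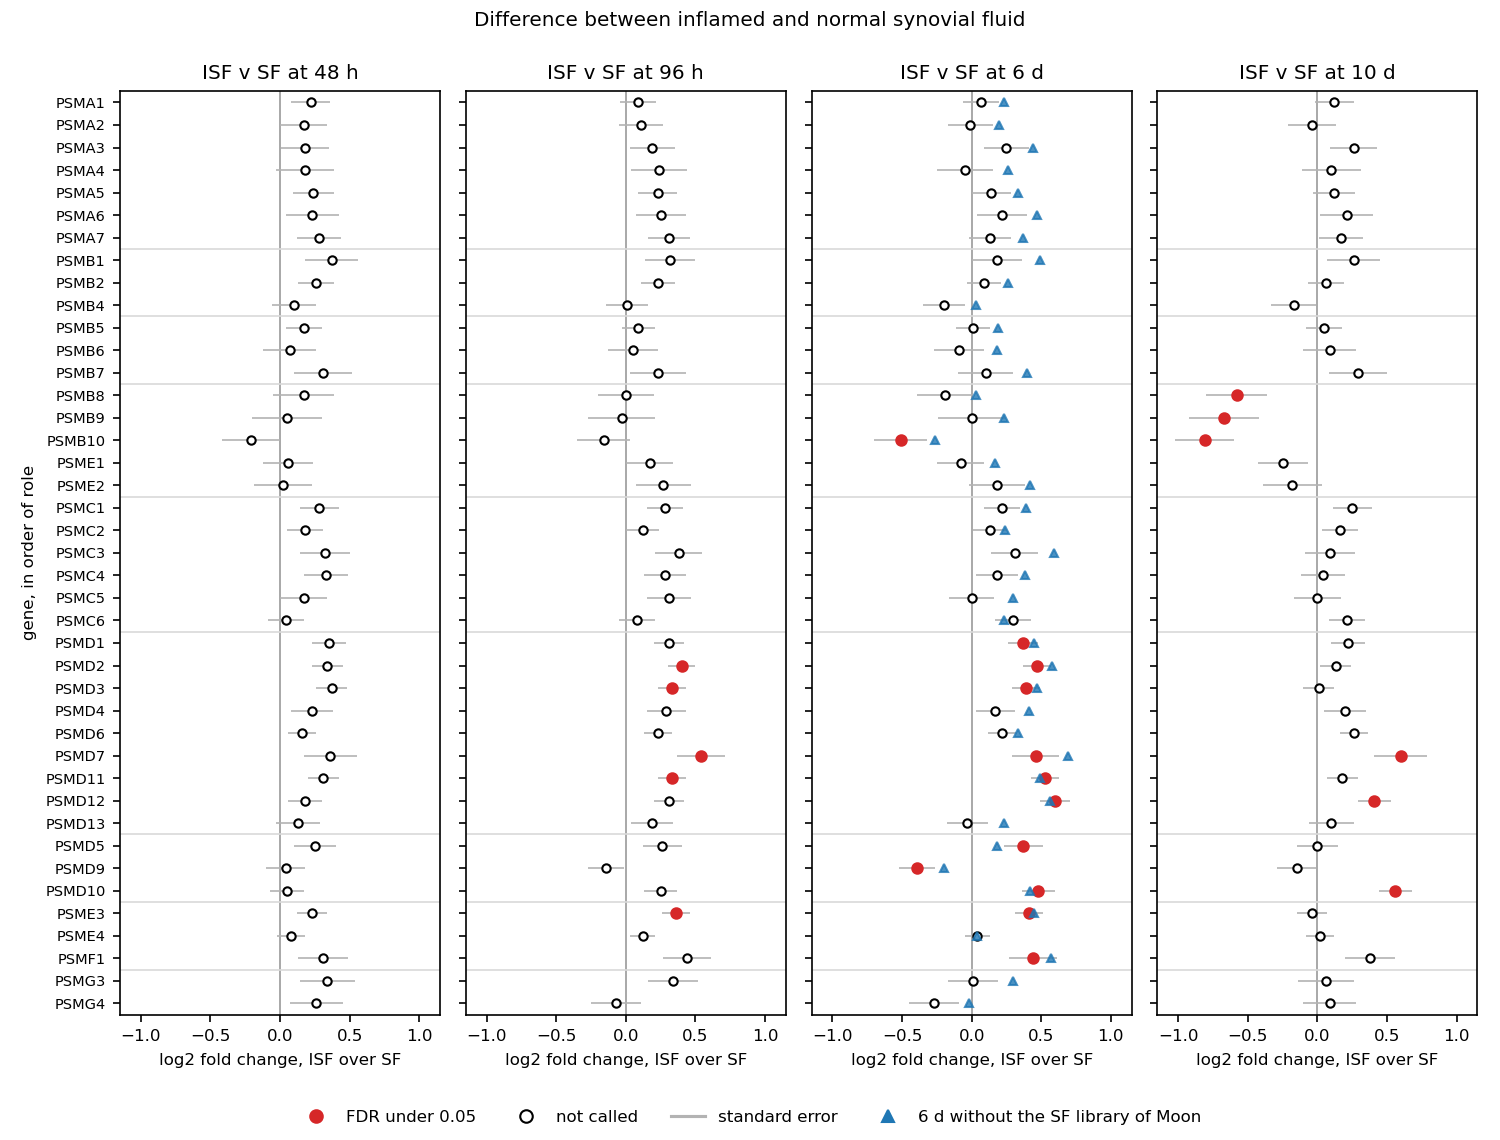
Difference between ISF and SF in log2(GeTMM + 1) for each of 41 genes at 4 times, with the SE as bars, filled red points where limma's FDR was under 0.05 and open points elsewhere, and blue triangles for 6 d without the Moon SF library. The immunoproteasome genes PSMB8, PSMB9 and PSMB10 at 10 d lie furthest to the lower side (-0.58, -0.67 and -0.81).

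At 10 d 3 members were higher and 3 lower (7.32% each way, against 9.95% and 10.8% of all genes), so the share of members called was no larger than the background. Without the Moon SF library at 6 d the counts were 4 and 3, against 28.3% of all genes called. The lower genes were the 3 immunoproteasome catalytic genes. PSMB10 was at 60, 78.8 and 187 GeTMM in SF and 49.1, 52.5 and 72.7 in ISF, overlapping, and it was lower in ISF in 7 of 7 horses, by 0.81 (SE 0.21, FDR 0.00277). In SF it was 187 in Dealings, 156 in Ollie and 127 in Lurie and at most 78.8 in the other horses. PSMB9 was at 24.3, 37.7 and 114 in SF and 19.1, 24.6 and 72.6 in ISF and was lower in 6 of 7 horses (-0.67, SE 0.25, FDR 0.0479). PSMB8 was at 107, 178 and 287 in SF and 83.9, 124 and 239 in ISF and was lower in 7 of 7 horses (-0.58, SE 0.22, FDR 0.0473).

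The PSMB10 call held without each horse in turn and in every other setting tried. The calls for PSMB8 and PSMB9 were close to the threshold. Both were lost without Dealings, Dreamer, Lurie, Ollie or RimRun, and PSMB8 also without Catnip. Both were also lost without Flash, which had no library at 10 d, so there only the shared fit changed. Without Ollie the differences were -0.42 and -0.41, with FDR 0.244 and 0.317. The higher genes were PSMD7 (0.60, FDR 0.0152), PSMD10 (0.56, FDR 0.00059) and PSMD12 (0.41, FDR 0.0103), and PSMD7 and PSMD12 were lost without Dealings or Lurie. PSME1 was called at none of the 4 times. PSME2 was called only at 6 d without the Moon SF library (0.42, FDR 0.0409, against 0.18, FDR 0.545, with it). At 10 d they differed by -0.25 (FDR 0.372) and -0.18 (FDR 0.62).

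The ratio of PSMB10 to PSMB7 was lower in ISF in 7 of 7 horses at 48 h (-0.52, SD 0.29), 7 of 8 at 96 h (-0.40, SD 0.46), 8 of 8 at 6 d (-0.62, SD 0.33) and 7 of 7 at 10 d (-1.11, SD 0.74). In the exact sign-flip permutation test p was 0.0156, 0.0469, 0.00781 and 0.0156, with an adjusted p of 0.153 at 96 h and 0.0703 at the other times, where p was the smallest possible. PSMB8 to PSMB5 differed by 0.01, -0.09, -0.20 and -0.63 at the 4 times, with adjusted permutation p of 0.969, 0.681, 0.141 and 0.125. PSMB9 to PSMB6 differed by -0.02, -0.08, 0.10 and -0.78, with adjusted permutation p of 0.969, 0.703, 0.599 and 0.161, and at 6 d it was higher in ISF in 6 of 8 horses. At 10 d the medians of the PSMB10 to PSMB7 ratio were 0.67 in SF and 0.308 in ISF. The immunoproteasome share of catalytic GeTMM at 10 d was 23.8 to 36% (median 27%) in ISF and 30.8 to 56.2% (median 34.6%) in SF.

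T cell markers were lower in ISF than in SF at 10 d. Their sum at 10 d was 4.33, 7.61 and 14.8 GeTMM in ISF and 23.5, 103 and 199 in SF, without overlap, and 5 of 5 were lower in ISF, as were 3 of 5 B and plasma cell markers, 3 of 6 neutrophil precursor markers and 5 of 5 stromal markers. Within SF at 10 d the T cell sum was 103 in Dealings, 84.8 in Ollie and 131 in Lurie, the horses with the high PSMB10 levels. It was 199 in Catnip, 195 in Dreamer, 42.3 in Moon and 23.5 in RimRun, whose PSMB10 levels were 67.1, 65.6, 60 and 78.8. The part of these cells in the immunoproteasome differences was not tested.

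Whether the fluid difference itself changed over time was tested as an interaction between consecutive times. None of the 41 members passed in limma from 48 h to 96 h, 96 h to 6 d or 6 d to 10 d, against 0.0206%, 0% and 0.226% of all genes, with 0, 0 and 4 members at an unadjusted p under 0.05. The 4 were PSME3 (-0.45, FDR 0.138), PSMD3 (-0.38, FDR 0.209), PSMD11 (-0.35, FDR 0.27) and PSMD2 (-0.34, FDR 0.274), where a negative value is a smaller ISF excess at 10 d than at 6 d. With the horse as a block and without the Moon SF library at 6 d, a setting chosen after seeing the data, PSMC3, PSMD2, PSMD3 and PSME3 passed from 6 d to 10 d, against 2.61% of all genes.

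Levels across the 68 libraries, described without a test since libraries share horses, groups and scaling, ran together within the core. The 378 pairs of core genes had a median Pearson r of 0.75 (0.04 to 0.96), and of 0.72 (0.20 to 0.95) over 67 libraries without the Moon SF library at 6 d. The 3 pairs among PSMB8, PSMB9 and PSMB10 had a median of 0.69 with and 0.61 without it, and PSME1 with PSME2 had 0.72 and 0.59. PSMB10 with the core genes depended on that library, with a median r of -0.14 (-0.71 to 0.30) with it and -0.54 (-0.74 to -0.14) without it.

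Other genes of the pathway were read from lists by name. Of 6 proteasome partners tested, 4 rose from 0 h to 48 h in each fluid and 1, the 19S-binding protein PAAF1, fell in SF by 0.29 (FDR 0.036), beside the 25.3% of all genes that rose in ISF and the 22.3% that rose and 23.1% that fell in SF. Those that rose included POMP, the maturation factor of the 20S core (1.31 in ISF, FDR 1.03e-09, and 1.37 in SF, FDR 3.99e-10), and TXNL1, a thioredoxin-like protein bound to the 19S particle (0.92 and 0.90). USP14 and UCHL5, deubiquitinases that act on the 19S particle, were higher in ISF than in SF at 96 h (0.39 and 0.46), 6 d (0.71 and 0.45) and 10 d (0.53 and 0.36). ADRM1 and SEM1 were not analysed here. Of 3 genes of transcriptional control, NFE2L1, the factor that raises transcription of proteasome genes when proteasome activity is short, rose from 0 h to 48 h by 1.12 in ISF and 0.80 in SF and from 6 d to 10 d by 0.99 in ISF, and at 10 d it was higher in ISF (0.70, FDR 0.0272). In SF from 6 d to 10 d NFE2L1 differed by 0.83 (FDR 0.0254) with the Moon SF library at 6 d and by 0.63 (FDR 0.1, not called) without it. NGLY1, the glycanase that processes it, fell by 0.28 in ISF from 0 h to 48 h, and DDI2, its protease, was called in no comparison.

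Of 6 factors that deliver substrates, 5 rose from 0 h to 48 h in ISF and 4 in SF, beside 25.3% and 22.3% of all genes. VCP, the segregase that extracts ubiquitinated proteins, rose by 0.82 and 0.61. At 6 d 3 of the 6 (VCP, NPLOC4 and UBQLN1) were higher in ISF, beside 16.7% of all genes. Among ubiquitin and E1 genes, UBA1, the main ubiquitin-activating enzyme, fell from 0 h to 48 h by 0.25 in ISF and by 0.37 in SF, and UBA6, another activating enzyme, rose in SF by 0.56. At 6 d RPS27A, which encodes ubiquitin fused to a ribosomal protein, was lower in ISF (-0.76, and -0.47 without the Moon SF library, FDR 0.0445) and UBA1 was higher (0.36).

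Of 10 genes of peptide loading and the interferon gamma response, 2 rose and 4 fell from 0 h to 48 h in each fluid, where 25.3% of all genes rose and 27.4% fell in ISF and 22.3% rose and 23.1% fell in SF. NLRC5, the transactivator of MHC class I genes, fell by 1.45 in ISF and by 1.11 in SF. CALR, a chaperone of the loading complex, rose by 1.38 and 0.98, and TAPBP, its tapasin component, fell by 1.17 and by 1.03. At 10 d NLRC5 (-1.33, FDR 1.76e-06) and the transcription factor IRF1 (-1.47, FDR 0.0039) were lower in ISF, and CALR (0.76) and PDIA3 (0.73) were higher. In SF from 6 d to 10 d ERAP2 (1.08, FDR 0.0276) and TAP1 (0.88, FDR 0.0326) passed the test, but without the Moon SF library at 6 d they were at 0.68 (FDR 0.114) and 0.74 (FDR 0.106) and were not called. PSMB8, PSMB9 and PSMB10 were not called there in limma with or without that library.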

How the data were processed

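RNA sequencing libraries of 68 samples were analysed. Per the labels and the study's methods, the authors trimmed stranded paired-end reads with TrimGalore, mapped them to EquCab3.0 with STAR 2.7.2a, counted reads per gene, and deposited GeTMM values, an RPKM-like unit in which edgeR's scaling between libraries is applied to length-corrected counts. Depth was recovered from the values: all 24065 genes above 0 gave whole reads within 0.02 reads, and 15.7 to 36 M reads per library (median 22.3).

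Groups followed the fluid and time in the labels. The 14570 genes that reached 0.5 GeTMM in 7 or more libraries were fitted as log2(GeTMM + 1) with limma 3.58.1 in R 4.3.3 (trended variance, 9 groups, 68 libraries, no horse term), and p-values were adjusted by Benjamini-Hochberg over all genes. The authors tested counts with DESeq2. Since the deposited values are normalized, the test was run on their log scale, with a voom fit of the recovered reads as an alternative. Ratios were tested with two-sided exact sign-flip permutation tests over horses in Python 3.11.15. Both steps were tested on simulated data.

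The same horse supplied samples to each group, which pairs them. Deviations from the group means within a horse had a median correlation of 0.21 to 0.58 over the 12 comparisons (lowest -0.22, ISF against SF at 96 h). The members, roles, pathway lists and marker lists were chosen with earlier results of these data known. Genes named in the text were the catalytic and PA28 genes, the 3 highest and 3 lowest called members of each comparison, the most and least abundant member of each role, and up to 4 called genes of each pathway list. Members just under the expression filter and genes whose groups did not overlap were added after values were seen. RAD23B, UBQLN2 and TAP2 were not analysed here, and no sequence is shown. Alternatives changed the pseudocount (0.1), the filter, the replicate block, the libraries included and the test (voom on recovered reads).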

Additional observations from a re-analysis of the deposited data

Results flagged for a closer look

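A library lay far from the rest of its group in 24 of 171 groups of gene and condition examined, where chance flags about 1 in 20. The SF library of Moon at 6 d accounted for 10 of these, with PSMB5 at 495 GeTMM (next highest 220), PSMB6 at 780 (250), PSMB7 at 688 (186), PSMB8 at 548 (191), PSMB9 at 138 (46.9), PSMB10 at 300 (83.7), PSME1 at 524 (145), PSME2 at 153 (47.1), PSMD7 at 283 (116) and PSMD9 at 96.5 (38.9). Its ratios of immunoproteasome to constitutive genes were not flagged.

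Moon also stood apart in SF at 96 h, with PSMB7 at 199 GeTMM (next highest 144), PSMD7 at 101 (76), PSMD12 at 67.2 (51.2) and a PSMB10 to PSMB7 ratio of 0.338 (next lowest 0.491). Ollie was high at 0 h for PSMB6 (161, next 111) and PSMB7 (113, next 90.4), and in ISF at 6 d for PSMD10 (34.9, next 25.3). Dreamer was low in ISF at 6 d for PSMB9 (31.4, next 44.7) and for the PSMB8 to PSMB5 ratio (0.531, next 0.729), and high in ISF at 96 h for PSMD10 (30.9, next 21.6), in a library that was closest to another horse's profile. Dealings was high in ISF at 10 d for PSMB10 (72.7, next 55.5) and at 6 d for PSME3 (122, next 111). RimRun was high in ISF at 48 h for PSMB7 (204, next 156) and Catnip in SF at 96 h for PSME3 (105, next 85.9).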

How the results depend on the processing

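Of 84 member calls, 56 remained in every setting, 44 of 53 from 0 h to 48 h and 8 of 23 between the fluids, and 0 reversed. With the horse as a replicate block all 84 remained, and the number of members called became 3 at 48 h and 9 at 96 h between the fluids and 1 in ISF from 96 h to 6 d, with no other count moved by over 1.5 times. With a pseudocount of 0.1 84 remained, with voom 83, with no filter 77. Fitting only the 2 groups compared kept 73, and gave 1, 16, 5 and 3 calls between the fluids at 48 h, 96 h, 6 d and 10 d, 5 in ISF from 48 h to 96 h and 3 in ISF from 6 d to 10 d. Without the Moon SF library at 6 d there were 3, 15 and 24 calls between the fluids at 48 h, 96 h and 6 d, 6 and 3 in ISF from 48 h to 96 h and from 6 d to 10 d, and 7 in SF from 48 h to 96 h. Leaving the 96 h ISF libraries labelled Dealings and Dreamer out gave 2 at 96 h. The block without that Moon library, chosen after seeing the data, gave 10, 20, 25 and 12 calls between the fluids. It gave 6, 2 and 7 over the later ISF intervals, and 7 and 1 in SF from 48 h to 96 h and from 6 d to 10 d. Its 4 interactions between 6 d and 10 d were PSMC3, PSMD2, PSMD3 and PSME3, against 2.61% of all genes. Without that library and with no block, 5%, 16.8%, 36.2% and 28.3% of all genes were called between the fluids at 48 h, 96 h, 6 d and 10 d. Shares of all genes are not given for the other counts of the block without that library. They are also not given for the fits of only 2 groups or without a horse, so those counts are not set against a background.

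Leaving out each horse in turn gave 0 to 3, 1 to 17, 7 to 23 and 2 to 7 calls between the fluids at 48 h, 96 h, 6 d and 10 d, 28 to 32 and 18 to 30 from 0 h to 48 h in ISF and SF, 2 to 5, 0 to 0 and 0 to 5 over the later ISF intervals, 2 to 6, 0 to 0 and 0 to 0 over the later SF intervals, and 0 to 0 for the interactions and the ratios. Each member had at least 102 reads in every library, and the effect of depth on the calls was not tested. A member that was not called is not shown to be equal between the groups.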

Other observations

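PSMC3IP and PSME3IP1, whose names match the proteasome pattern without their products being subunits, fell during culture. PSMC3IP, a partner of the meiotic recombinases, was at 25.7, 36.2 and 71.5 GeTMM (lowest, median and highest) at 0 h, and at 6.73, 10.8 and 13.8 in ISF and 9.14, 11.4 and 14 in SF at 10 d, below every 0 h library. In limma it fell by 0.53 in ISF from 0 h to 48 h (FDR 0.0168), by 1.04 in SF from 48 h to 96 h (FDR 2.04e-05) and by 0.60 in ISF from 6 d to 10 d (FDR 0.0335). PSME3IP1, whose product binds PSME3, was at 82, 91.2 and 111 at 0 h and at 47.1, 51.1 and 60.4 in ISF and 48.7, 51.2 and 59.5 in SF at 10 d, again below every 0 h library. It fell from 48 h to 96 h by 0.46 in ISF (FDR 0.000687) and by 0.64 in SF (FDR 1.26e-06).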
